A study of Mus musculus with 4 samples.

Results

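NRF2, encoded by Nfe2l2, is the transcription factor that switches on much of the defence of a cell against oxidants and electrophiles. Under resting conditions KEAP1 holds NRF2 in the cytoplasm and presents it for degradation. When oxidants modify KEAP1, NRF2 accumulates and binds antioxidant response elements beside genes for quinone and epoxide detoxification, glutathione synthesis, thioredoxin recycling, NADPH supply and iron storage. Described here are 38 mouse genes of this defence, namely NRF2, KEAP1, recognised NRF2 target enzymes, and the superoxide dismutases, catalase, peroxiredoxins and glutathione peroxidases that remove superoxide and peroxides directly. They were listed by symbol for their roles in these pathways, by a choice made with earlier results of these data known, and all 38 symbols matched an Ensembl gene among the 54532 identifiers of the count table. All 38 also passed the filter on low counts that left 13306 genes for testing, with counts between 37 and 20745 in any library.

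The libraries were total RNA profiles of primary mouse embryonic fibroblasts (MEFs) of the C57BL/6 strain, taken from embryos at 12.5 to 13.5 days post coitum and used while growing at passage 4. There were 4 genotypes with 1 library of each: wild type (WT), the single nulls Zfp871-/- and Trp53-/-, and the double null Trp53-/-; Zfp871-/-. Trp53 encodes the p53 tumour suppressor, and Zfp871 encodes a zinc finger protein. All 4 cultures were grown in medium with 10% fetal bovine serum and 55 µM beta-mercaptoethanol, a reducing agent, so no culture was free of an added thiol. WT, Trp53-/- and double-null embryos came from crosses of doubly heterozygous mice and Zfp871-/- embryos from crosses of Zfp871 heterozygotes. Nothing used here states which cross gave the sequenced WT culture, whether embryos were pooled or how the alleles were built.

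Depth was 19303167 to 22324599 counted reads per library. The Trp53 count was 2383 in WT and 2413 in Zfp871-/-, against 1233 in Trp53-/- and 1382 in the double null, and the Zfp871 count was 660, 327, 784 and 307 in the same order, so each targeted gene was lower in the libraries labelled null for it but still gave reads. Fibroblast markers (10 genes) summed to 42300, 43400, 33000 and 30000 CPM (counts scaled to a common library size) in WT, Zfp871-/-, Trp53-/- and double null. In the fit given below, 0 of these 10 rose with Trp53 loss and 1 fell, Col3a1, against 5.01% and 4.31% of all genes. Fibroblast markers went both ways in Trp53-/- against WT, with log2 ratios of -0.54 for Col1a1 and 1.71 for Thy1. The 15 macrophage markers summed to 79.4, 92.7, 1120 and 1010 CPM in the same order, with none at 0 in any library. All 15 rose with Trp53 loss, against 5.01% of all genes. The 10 chondrocyte markers summed to 1330, 522, 140 and 201 CPM, with 1, 0, 2 and 2 of them at 0. With Trp53 loss 2 of them fell, against 4.31% of all genes. In bulk RNA of this kind, fewer cells of a type and less RNA per cell cannot be told apart.

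Since the antioxidant response element is what NRF2 binds, the sequence next to their start sites was read first. RefSeq promoter windows on GRCm38.p6, from 250 bases before to 50 bases after a transcript start, were found for 32 of the 38 genes; Gsta4, Sod3, Prdx6, Gclc, Gsr and Hmox1 had no window. The core of the element, TGACNNNGC on either strand, was present in the windows of 10 of these 32 genes, or 31.2%. Of 27025 genes with windows, 14% held it. The stretches below carry the core in capitals with 10 bases on each side, written on the strand that reads TGACNNNGC and shown because they are the only matches among the members.
Nfe2l2, chr2:75704885-75704913: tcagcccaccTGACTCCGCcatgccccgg
Prdx1, chr4:116685456-116685484: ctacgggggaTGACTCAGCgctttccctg
Me1, chr9:86695902-86695930: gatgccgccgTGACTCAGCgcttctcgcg
Srxn1, chr2:152105542-152105570: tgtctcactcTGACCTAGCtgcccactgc
Txnrd1, chr10:82859104-82859132: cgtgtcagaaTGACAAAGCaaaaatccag
Gclm, chr3:122245413-122245441: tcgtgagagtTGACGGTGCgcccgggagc
G6pdx, chrX:74428919-74428947: gcgtgtgcttTGACTGAGCtgacccgcct
Pgd, chr4:149166061-149166089: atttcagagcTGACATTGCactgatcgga
Mgst1, chr6:138140461-138140489: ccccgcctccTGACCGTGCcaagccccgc
Sod1, chr16:90220696-90220724: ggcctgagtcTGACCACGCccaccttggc
Counted from the start site, the core lay before it in Nfe2l2 (-240 to -232), Gclm (-134 to -126), Prdx1 (-133 to -125), Txnrd1 (-92 to -84), G6pdx (-57 to -49), Mgst1 and Sod1 (both -56 to -48). It spanned the start in Me1 (-6 to 3) and lay in the transcribed part in Pgd (4 to 12) and Srxn1 (29 to 37). Of the cores before the RefSeq start, those of Txnrd1, G6pdx and Mgst1 lie inside the longer gene spans of the GENCODE M21 annotation. In Prdx1 and Me1 the core overlapped TGANTCA, the letters of an AP-1 site. A match describes these letters only, and the absence of one says only that the letters are not in this window.

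In the levels the authors deposited, which are per length of transcript (FPKM) and so can be set between genes, the set ranged in WT from 0.921 for Aox1 to 778 for Ftl1. Of the 38 genes, 34 stood at 10 FPKM or more in WT and 9 at 100 or more. The light and heavy chains of ferritin, Ftl1 and Fth1, were the most abundant, at the 99.8 and 99.6 percentile of all genes tested. Gpx1, Ephx1, Txn1, Prdx1, Nqo1, Gstp1 and Gpx4 followed, between 101 and 218 FPKM. The summed level of all 38 was 3210 FPKM in WT and 2900 in Zfp871-/-, against 2800 in Trp53-/- and 2910 in the double null. Without the ferritin chains the remaining 36 summed to 1950, 1710, 1390 and 1490, so ferritin took a larger part of the whole in both libraries without Trp53.

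**Figure D1:**
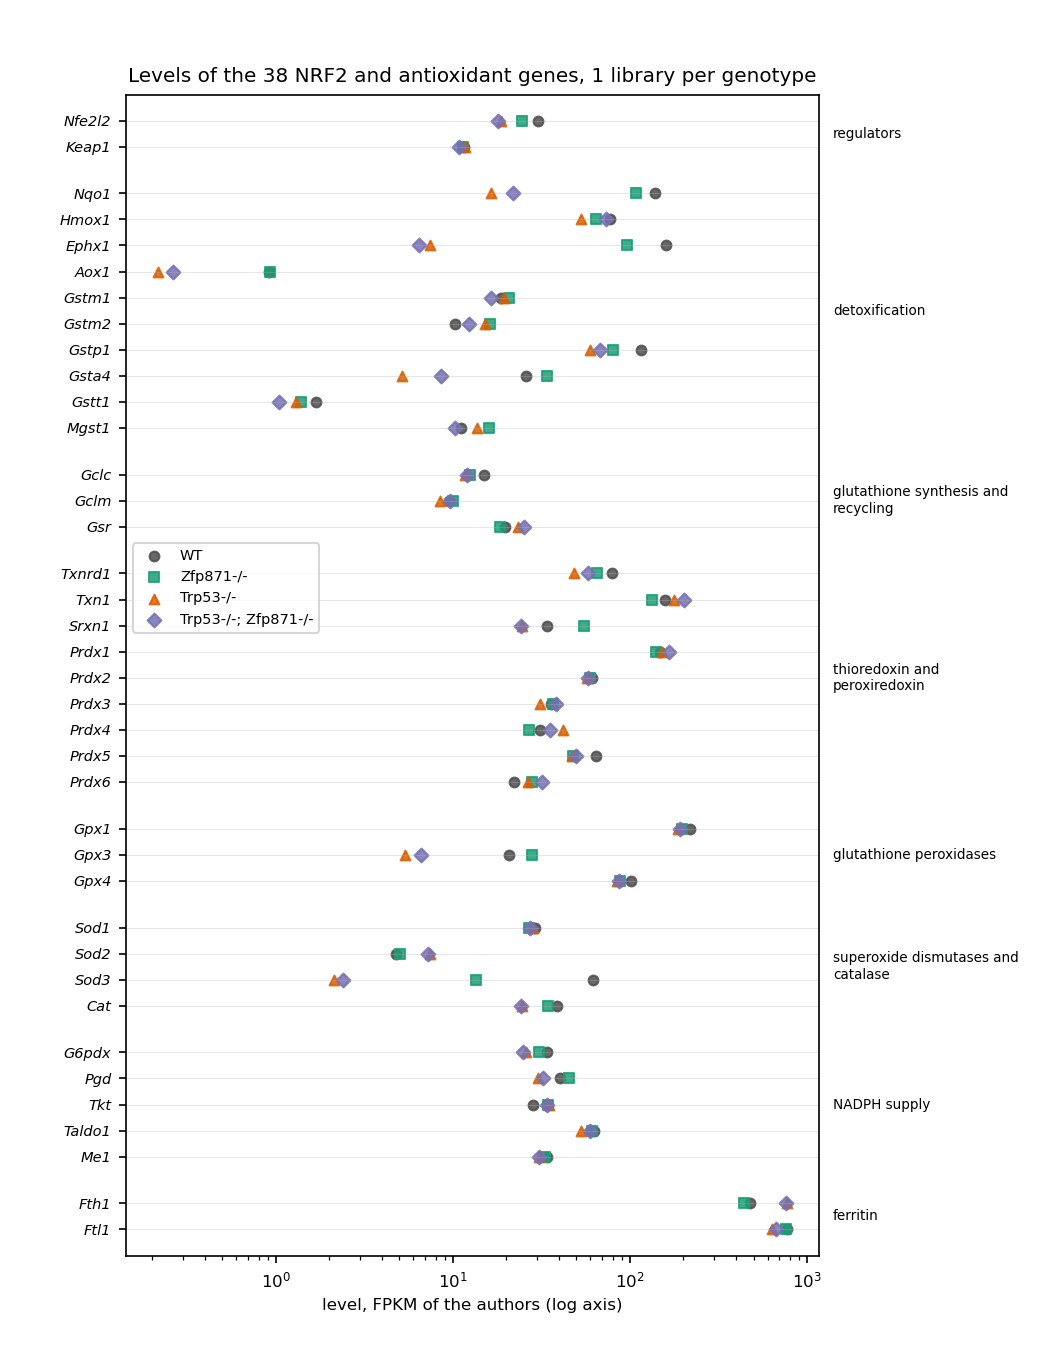
Levels of the 38 genes in each of the 4 libraries, grouped by role, on a log axis of the FPKM the authors deposited; each symbol is 1 library. Ephx1, Nqo1, Gsta4, Gpx3, Aox1 and Sod3 are the genes where the triangles and diamonds (Trp53-/- and double null) lie far to the left of the circle (WT).

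Loss of Trp53 was asked of the set with an edgeR quasi-likelihood fit of all 4 libraries on the sum of a Trp53 and a Zfp871 effect, with Benjamini-Hochberg adjustment over all 13306 genes. Of the 38 genes, 7 fell (18.4%) and 2 rose (5.26%), against 4.31% and 5.01% of all genes tested. The 7 that fell were Ephx1, Sod3, Nqo1, Gsta4, Gpx3, Aox1 and Cat, and the 2 that rose were Fth1 and Sod2. The remaining 29 lay between -0.82 and 0.40 on the log2 scale, 21 of them below 0 and 8 above. Each genotype had 1 library, so the fit took libraries of different Zfp871 genotype as replicates and had 1 residual degree of freedom; the p-values measure only that spread. Gene positions below are those of the GENCODE M21 annotation on GRCm38.

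Neither regulator was called. Nfe2l2 gave 2184 counts in WT and 1764 in Zfp871-/-, against 1565 in Trp53-/- and 1591 in the double null. WT was the highest of the 4, and both libraries without Trp53 lay below both with it. Its log2 fold change with Trp53 loss was -0.57 ± 0.12 (SE), with an edgeR adjusted p of 0.0577; without the filter on low counts the adjusted p was 0.0295. Keap1, the adaptor that brings NRF2 to its ubiquitin ligase, gave 1030, 1007, 1211 and 1184 counts, and its log2 fold change was -0.02 (edgeR adjusted p of 0.906). Its FPKM lay between 10.9 and 11.8 in all 4 libraries.

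Ephx1 (ENSMUSG00000038776, chromosome 1, 180976210 to 181020904), the microsomal epoxide hydrolase that turns reactive epoxides into diols, showed the widest fitted gap of the set. Its count was 5970 in WT and 3558 in Zfp871-/-, against 318 in Trp53-/- and 291 in the double null. Both libraries with Trp53 lay far above both without. The fitted fall was 18.1-fold (log2 fold change -4.18 ± 0.18 SE, edgeR adjusted p of 0.00861). In WT Ephx1 stood at 161 FPKM, above Txn1 and Prdx1, and in the double null at 6.42.

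Nqo1 (ENSMUSG00000003849, chromosome 8, 107388225 to 107403206), the quinone reductase that is a standard readout of NRF2 activity, gave 4064, 3144, 563 and 796 counts in WT, Zfp871-/-, Trp53-/- and double null. The groups with and without Trp53 did not overlap. The fitted fall was 6.37-fold (log2 fold change -2.67 ± 0.23 SE, edgeR adjusted p of 0.0165). The log2 ratio was -3.06 in Trp53-/- against WT and -2.28 in the double null against Zfp871-/-. The haem-degrading oxygenase Hmox1, another widely used NRF2 target, gave 2581, 2132, 2026 and 2977 counts and no call (log2 fold change -0.19, edgeR adjusted p of 0.582). The Hmox1 counts of the libraries with and without Trp53 overlapped.

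Gsta4 (ENSMUSG00000032348, chromosome 9, 78182774 to 78209349), a glutathione transferase that conjugates the lipid peroxidation product 4-hydroxynonenal, gave 624, 807, 144 and 254 counts in WT, Zfp871-/-, Trp53-/- and double null. Its fitted fall was 4.42-fold (log2 fold change -2.14 ± 0.17 SE, edgeR adjusted p of 0.0148). Aox1 (ENSMUSG00000063558, chromosome 1, 58029931 to 58106413), an aldehyde oxidase and the least abundant gene of the set, gave 152, 152, 41 and 53 counts and a fall of 3.88-fold (log2 fold change -1.96 ± 0.28 SE, edgeR adjusted p of 0.0339). For both genes the 2 libraries without Trp53 lay below the 2 with it. The other 5 transferase genes were not called. Gstp1 gave 1648, 1142, 988 and 1196 counts (log2 fold change -0.59, edgeR adjusted p of 0.141), with the double null above Zfp871-/- in raw counts. Gstm1, Gstm2, Mgst1 and Gstt1 had log2 fold changes from -0.39 to 0.09. Gstm1 and Gstm2 are related genes that lie close together on chromosome 3, and whether the counting split reads between them was not checked.

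None of the windows of Ephx1, Nqo1 or Gpx3 held the core, and neither did those of the other called genes with a window. That makes 0 of 7, against 31.2% of the members with a window and 14% of all genes. The difference was not tested. The 100 bases before the RefSeq start are shown for these 3 genes because theirs were the 3 largest falls among called genes with a window. Capitals mark GC boxes (GGGCGG, or CCGCCC on the other strand). Of all windows, 35.7% hold such a box somewhere in their 300 bases, and the share for the 100 bases alone was not computed.
Ephx1, chr1:181017570-181017669, minus strand: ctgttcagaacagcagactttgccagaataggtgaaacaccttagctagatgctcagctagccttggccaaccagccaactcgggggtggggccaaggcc
Nqo1, chr8:107403206-107403305, minus strand: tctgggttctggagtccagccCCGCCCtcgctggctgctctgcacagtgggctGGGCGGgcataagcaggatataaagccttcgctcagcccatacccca
Gpx3, chr11:54902754-54902853, plus strand: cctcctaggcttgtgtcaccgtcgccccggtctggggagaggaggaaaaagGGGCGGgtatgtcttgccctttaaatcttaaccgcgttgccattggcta
The stretch of Nqo1 has 2 GC boxes, that of Gpx3 has 1, and that of Ephx1 has 0. The stretches of Ephx1 and Gpx3 lie inside the gene spans of GENCODE M21, which begin further upstream, while that of Nqo1 meets the annotated start. The starts of single transcripts in that annotation were not read.

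Glutathione synthesis and recycling gave no call. The catalytic and modifier subunits of glutamate-cysteine ligase, Gclc and Gclm, had log2 fold changes of -0.20 and -0.12 with Trp53 loss, and glutathione reductase, Gsr, had 0.35 (edgeR adjusted p of 0.366, 0.496 and 0.133). Gsr gave 1035, 963, 1423 and 1618 counts in WT, Zfp871-/-, Trp53-/- and double null, against 1142, 1190, 1167 and 1403 for Gclm.

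None of the 9 thioredoxin and peroxiredoxin genes was called. Srxn1, the sulfiredoxin that repairs overoxidised peroxiredoxins, gave 1814 counts in WT and 2918 in Zfp871-/-, against 1532 in Trp53-/- and 1584 in the double null. Highest was the Zfp871-/- library, 1.61-fold above WT after normalization, and no such gap was seen between the double null and Trp53-/-, at 1.03-fold. Its log2 fold change with Trp53 loss was -0.82 ± 0.20 (SE, edgeR adjusted p of 0.0828); without the filter on low counts and in DESeq2 the gene was called. Txnrd1, thioredoxin reductase, and its substrate Txn1 had log2 fold changes of opposite sign, -0.43 and 0.38 (edgeR adjusted p of 0.185 and 0.177). The 6 peroxiredoxins, thiol peroxidases of the cytosol, mitochondria and secretory pathway, lay between -0.20 and 0.40, and their summed level was 363, 341, 357 and 380 FPKM.

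Of the 3 glutathione peroxidases, the secreted one fell and the cellular ones were not called. Gpx3 (ENSMUSG00000018339, chromosome 11, 54902453 to 54910377), the plasma form, gave 715 counts in WT and 951 in Zfp871-/-, against 213 in Trp53-/- and 279 in the double null. Both libraries without Trp53 lay below the others, and the fitted fall was 4.04-fold (log2 fold change -2.02 ± 0.14 SE, edgeR adjusted p of 0.0123). Gpx1, the cytosolic form, and Gpx4, which reduces lipid hydroperoxides in membranes, had log2 fold changes of -0.13 and -0.14. In FPKM, Gpx3 stood at 9.54% of Gpx1 in WT and 14.2% in Zfp871-/-, against 2.86% in Trp53-/- and 3.45% in the double null.

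Of the 3 superoxide dismutases 1 fell, 1 rose and 1 was not called. Sod3 (ENSMUSG00000072941, chromosome 5, 52363791 to 52371418), the extracellular enzyme, gave 4379 counts in WT and 952 in Zfp871-/-, against 175 in Trp53-/- and 208 in the double null. It fell with Trp53 loss by 12.8-fold (log2 fold change -3.68 ± 0.64 SE, edgeR adjusted p of 0.0446), and its standard error was the widest of the called genes. The gap was 28.6-fold from WT to Trp53-/- and 5.59-fold from Zfp871-/- to the double null. Sod2 (ENSMUSG00000006818, chromosome 17, 13006846 to 13040063), the mitochondrial manganese enzyme, gave 905, 951, 1641 and 1682 counts and rose 1.5-fold (log2 fold change 0.58 ± 0.11 SE, edgeR adjusted p of 0.0491). Sod1, the cytosolic copper and zinc enzyme, gave 2184, 2004, 2476 and 2533 counts and a log2 fold change of 0.00 (edgeR adjusted p of 0.989). In FPKM, Sod3 went from 213% of Sod1 in WT to 50.5% in Zfp871-/-, and stood at 7.51% in Trp53-/- and 8.72% in the double null.

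Cat (ENSMUSG00000027187, chromosome 2, 103453849 to 103485160), the peroxisomal catalase that breaks down hydrogen peroxide, gave 1913 counts in WT and 1699 in Zfp871-/-, against 1410 in Trp53-/- and 1483 in the double null. It fell 1.49-fold (log2 fold change -0.57 ± 0.11 SE, edgeR adjusted p of 0.0497). The calls of Cat and Sod2 sit just inside the threshold: DESeq2 made neither, and scaling by total counts lost that of Cat.

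**Figure D2:**
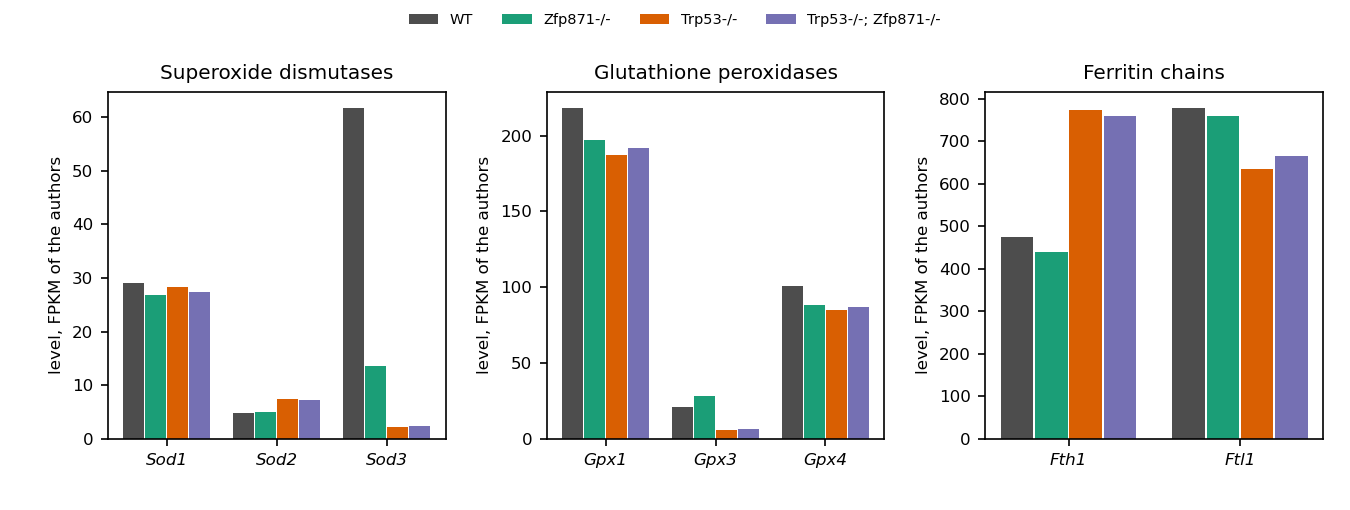
Levels of the superoxide dismutases, glutathione peroxidases and ferritin chains in the 4 libraries, in the FPKM the authors deposited; each bar is 1 library and bars start at 0. The bars of Sod3 and Gpx3 are short in both libraries without Trp53, and in those libraries Fth1 (775 and 760 FPKM) stands above Ftl1 (636 and 666).

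The 5 genes of NADPH supply were not called. G6pdx and Pgd, the oxidative enzymes of the pentose phosphate pathway, had log2 fold changes of -0.35 and -0.45 with Trp53 loss (edgeR adjusted p of 0.109 and 0.0759). Tkt and Taldo1, of its non-oxidative arm, and Me1, the cytosolic malic enzyme, lay between -0.15 and 0.14.

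Ferritin stores iron in a shell of heavy chains, which oxidise it, and light chains. Fth1 (ENSMUSG00000024661, chromosome 19, 9980598 to 9985098), the heavy chain, gave 7801 counts in WT and 7160 in Zfp871-/-, against 14742 in Trp53-/- and 15302 in the double null. Both libraries without Trp53 stood above both with it, and the gene rose 1.68-fold (log2 fold change 0.75 ± 0.11 SE, edgeR adjusted p of 0.0363). Ftl1, the light chain, gave 19788, 19147, 18727 and 20745 counts, a log2 fold change of -0.24 and no call (edgeR adjusted p of 0.262). In FPKM, Fth1 went from 61.0% of Ftl1 in WT and 57.9% in Zfp871-/- to 122% in Trp53-/- and 114% in the double null.

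Of the called genes, Sod2 and Fth1 rose in the libraries where the macrophage markers were high and the chondrocyte markers low. Ephx1, Sod3, Nqo1, Gsta4, Gpx3, Aox1 and Cat were lower in those same libraries. Among the chondrocyte markers the collagens Col9a3 (89, 33, 19 and 9 counts in WT, Zfp871-/-, Trp53-/- and double null) and Col11a1 (10392, 8249, 2214 and 3591) fell. Col2a1, the main cartilage collagen (11633, 558, 25 and 50, edgeR adjusted p of 0.068), and the regulator Sox9 (798, 771, 654 and 774, edgeR adjusted p of 0.133) were not called. Whether these cell types have a part in the values of any called gene was not tested.

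Taken pair by pair, without a test because each genotype had 1 library, more of the set lay below than above 0 without Trp53 in both Zfp871 backgrounds. Between Trp53-/- and WT, 6 of the 38 genes were at least 2-fold lower (15.8%, against 8.88% of all genes) and 0 at least 2-fold higher (against 8.9%). Between the double null and Zfp871-/-, 7 were at least 2-fold lower (18.4%, against 6.33%) and 0 higher (against 5.51%). The 6 were Ephx1, Sod3, Nqo1, Gsta4, Aox1 and Gpx3 in both pairs, and Srxn1 was added in the second. The median log2 ratio of the 38 genes was -0.25 in the first pair and -0.08 in the second, against 0.00 for all genes in each; scaled by total counts the second median was 0.06, with the median of all genes there at 0.14. In both backgrounds 22 genes (57.9%) were lower without Trp53 and 7 (18.4%) higher, against 37.2% and 37.4% of all genes. These 2 pairs share no library.

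**Figure D3:**
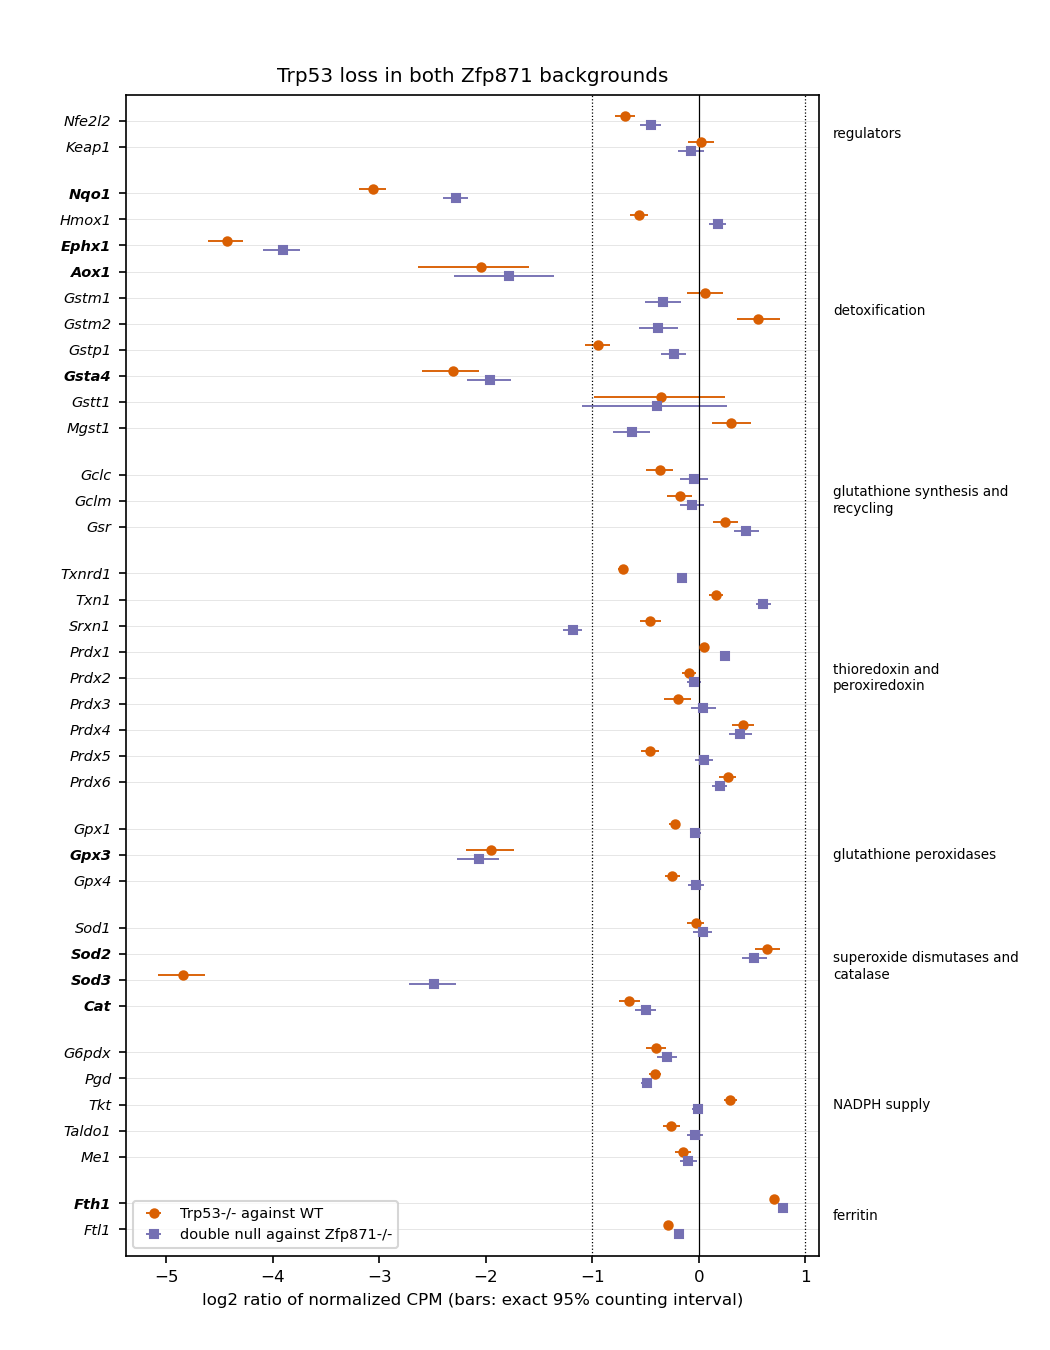
Log2 ratio of normalized CPM without against with Trp53 for each of the 38 genes, circles for Trp53-/- against WT and squares for the double null against Zfp871-/-, with exact 95% counting intervals and dotted lines at 2-fold; bold names passed the edgeR test. The 6 genes Nqo1, Ephx1, Aox1, Gsta4, Gpx3 and Sod3 lie beyond the 2-fold line on the left in both pairs, and Fth1 and Sod2 lie to the right of 0 in both.

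Counting error was small beside the large gaps. For Ephx1 the 95% interval of the log2 ratio, an exact Clopper-Pearson interval that covers counting error only, ran from -4.61 to -4.28 in Trp53-/- against WT and from -4.09 to -3.74 in the double null against Zfp871-/-. For Nqo1 the 2 intervals, -3.19 to -2.94 and -2.40 to -2.17, did not overlap either. For Aox1 they were -2.64 to -1.60 and -2.30 to -1.36 and overlapped. No library-to-library error can be given for a single pair.

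Loss of Zfp871 gave no call in the edgeR fit, in the set or in the whole table. Zfp871 itself was not called either (log2 fold change -1.23, edgeR adjusted p of 0.874). The absence of calls therefore does not show that Zfp871 loss had no effect on the set. In that fit 0 of the 38 genes rose and 0 fell, and over all genes tested the shares were 0% and 0%, with 510 of 13306 genes at an unadjusted p under 0.05. Among the 38, Ephx1, Gsta4 and Prdx6 had an unadjusted p under 0.05, and no adjusted p was below 0.874. DESeq2 called 3 genes that rose and 5 that fell over the whole table, edgeR without the filter 2 and 4, and limma-voom 0, with 0 of the 38 in each. The log2 fold changes ran from -1.15 for Sod3 to 0.54 for Gsta4.

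By pairs, 1 gene passed 2-fold. Between Zfp871-/- and WT, Sod3 was 4.59-fold lower (log2 ratio -2.20, interval -2.30 to -2.10), which makes 1 of 38 genes (2.63%) against 3.98% of all genes. At least 2-fold higher were 0 of 38, against 3.52%. Between the double null and Trp53-/-, 0 were lower (against 1.01%) and 0 higher (against 0.819%). Sod3 in that pair was near equal, with a log2 ratio of 0.16 and an interval of -0.14 to 0.46. The share of the set at least 2-fold lower in Zfp871-/- was thus no larger than that of the table.

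Most members lay close to 0, as did most genes of the table. Within 0.5 log2 units of 0 lay 32 of the 38 between Zfp871-/- and WT and 37 of 38 between the double null and Trp53-/-, against 76.6% and 90.9% of all genes. The exception in the second pair was Gsta4, at 0.72 (interval 0.43 to 1.03). The median log2 ratio was -0.09 with 25 of the 38 lower (against 50.5% of all genes) in the first pair, and 0.04 with 22 higher (against 50.9%) in the second. In both backgrounds 7 genes (18.4%) were higher without Zfp871 and 10 (26.3%) lower, against 27.3% and 27% of all genes. On opposite sides were 21 (55.3%), against 45.7% of all genes. Prdx6, a peroxiredoxin that also repairs oxidised phospholipids, was higher in both pairs, at 0.32 and 0.25 (2018 counts in WT and 2523 in Zfp871-/-, against 2819 in Trp53-/- and 3563 in the double null). Gsta4 and Gpx3 were higher in both as well, at 0.37 and 0.72 for Gsta4 and 0.41 and 0.30 for Gpx3.

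**Figure D4:**
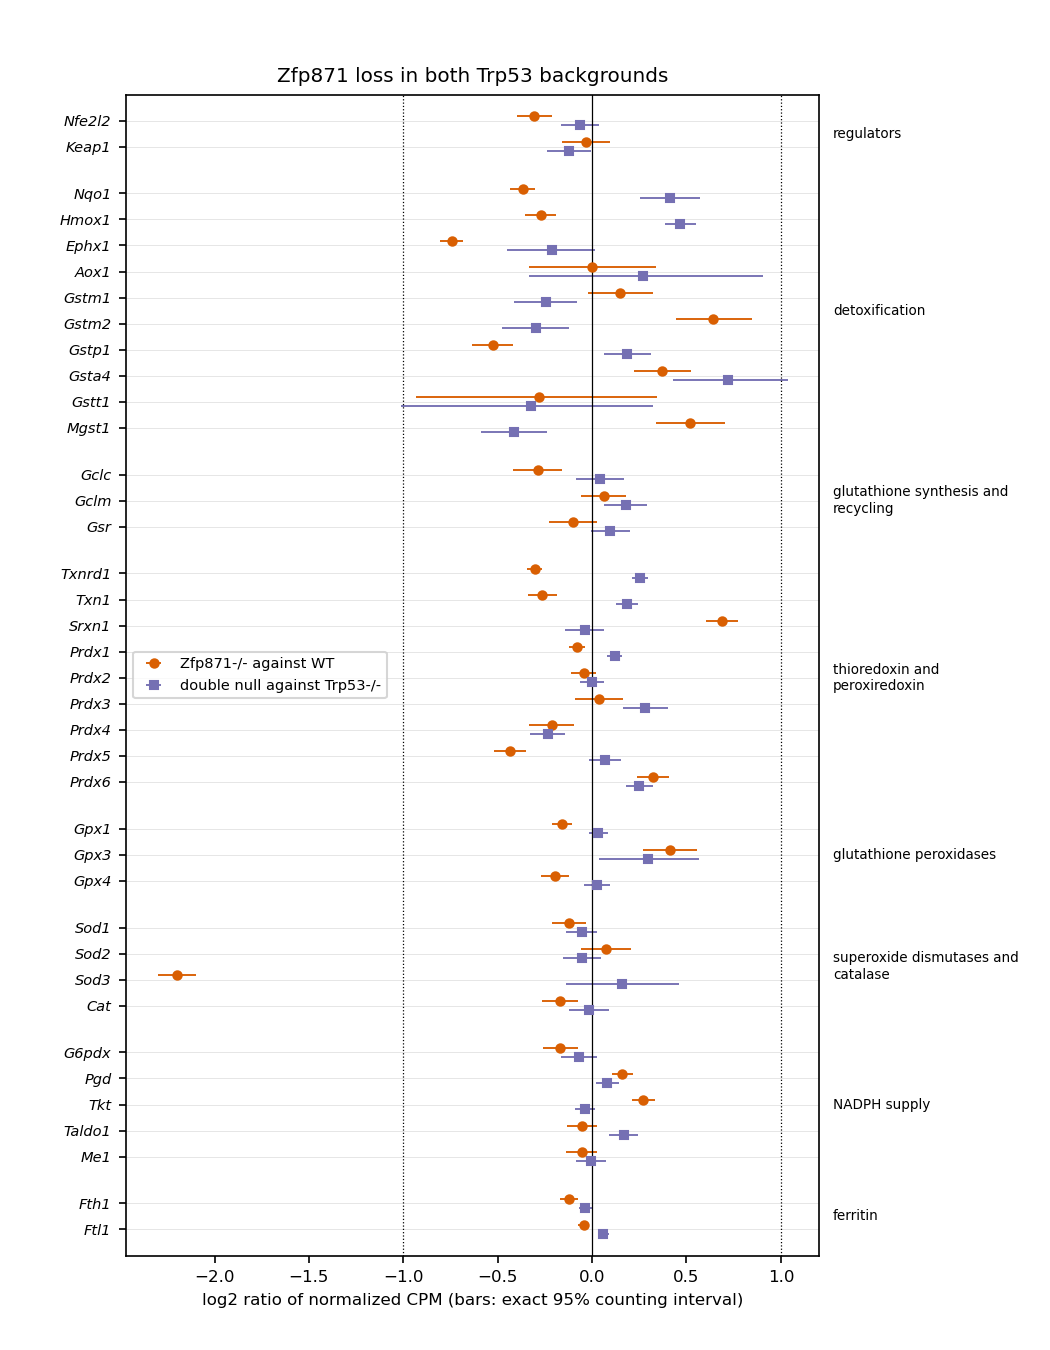
Log2 ratio of normalized CPM without against with Zfp871 for each of the 38 genes, circles for Zfp871-/- against WT and squares for the double null against Trp53-/-, with exact 95% counting intervals and dotted lines at 2-fold. Sod3, at -2.20 in the first pair, is the single point beyond 2-fold.

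Between the double null and WT, the libraries that differ in both genes, 6 of the 38 were at least 2-fold lower (15.8%, against 9.23% of all genes) and 0 at least 2-fold higher (against 8.79%). Ephx1 was 25.1-fold lower, Sod3 25.7-fold, Nqo1 6.27-fold, Aox1 3.43-fold, Gpx3 3.14-fold and Gsta4 3.01-fold. The median of the set was -0.19. This comparison shares the WT library with Trp53-/- against WT and with Zfp871-/- against WT.

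Beyond the 38, 56 other symbols of the NRF2 pathway were read as a list (57 gene identifiers, because Nnt matched 2), and 48 passed the filter. With Trp53 loss 0 rose and 2 fell, and 2 of 48 is close to the 4.31% of all genes that fell. Gss, glutathione synthetase, gave 1386, 1012, 641 and 723 counts in WT, Zfp871-/-, Trp53-/- and double null (log2 fold change -1.06 ± 0.17 SE, edgeR adjusted p of 0.0405). Ugdh, which makes the UDP-glucuronic acid used in conjugation, gave 4532, 6175, 3354 and 4436 (-0.71 ± 0.11 SE, edgeR adjusted p of 0.0376). The median log2 ratio of the 48 was -0.15 in Trp53-/- against WT and -0.16 in the double null against Zfp871-/-. This list and the 3 that follow gave 0 calls for Zfp871 loss.

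Targets of p53 with a redox role formed a second list of 12 symbols, of which Tp53i3 had no match and 10 passed the filter; 5 fell with Trp53 loss and 0 rose, against 4.31% and 5.01% of all genes. The sestrins Sesn2 and Sesn3, stress proteins linked to peroxiredoxin regeneration, had log2 fold changes of -1.57 and -1.47 (edgeR adjusted p of 0.0148 and 0.022). Sesn1, also a sestrin, was not called and had a positive log2 fold change of 0.50 (edgeR adjusted p of 0.296). Trp53inp1, a stress-induced protein with antioxidant action, had -4.49 (edgeR adjusted p of 0.00697), and Aldh4a1, a mitochondrial dehydrogenase of proline breakdown, had -1.75 (edgeR adjusted p of 0.0218). Cdkn1a, the p21 inhibitor of the cell cycle, which can also bind NRF2, had -5.57 (edgeR adjusted p of 0.00539).

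The NADPH oxidases make superoxide, the substrate of the dismutases. Of 13 of their genes, 8 passed the filter, 5 rose with Trp53 loss and 0 fell, against 5.01% and 4.31% of all genes. Cybb, the catalytic subunit of the phagocyte enzyme, gave 65, 68, 1246 and 907 counts in WT, Zfp871-/-, Trp53-/- and double null (log2 fold change 3.74, edgeR adjusted p of 0.0102). Its cytosolic partners Ncf1 and Ncf4 and the GTPase Rac2 had log2 fold changes of 3.99, 3.54 and 3.65 (edgeR adjusted p of 0.0102, 0.0165 and 0.0146). These are genes of phagocytes, and the 15 macrophage markers rose in the same libraries; their part in the result was not tested.

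Iron handling was the fourth list, of 11 genes that all passed the filter, with 3 that rose and 0 that fell, against 5.01% and 4.31% of all genes. Tfrc, the transferrin receptor, gave 2308, 3377, 4691 and 6270 counts in WT, Zfp871-/-, Trp53-/- and double null (log2 fold change 0.70, edgeR adjusted p of 0.0422). The iron exporter Slc40a1 gave 62, 53, 249 and 294 (log2 fold change 1.98, edgeR adjusted p of 0.0279), and the importer Slc11a2 gave 857, 915, 1573 and 1671 (log2 fold change 0.62, edgeR adjusted p of 0.0446). The other 8 were not called; Steap3, a ferrireductase, had the largest negative log2 fold change of the list at -0.67 (edgeR adjusted p of 0.255). The macrophage markers rose in the same libraries, and their part in these values was not tested.

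**Figure D5:**
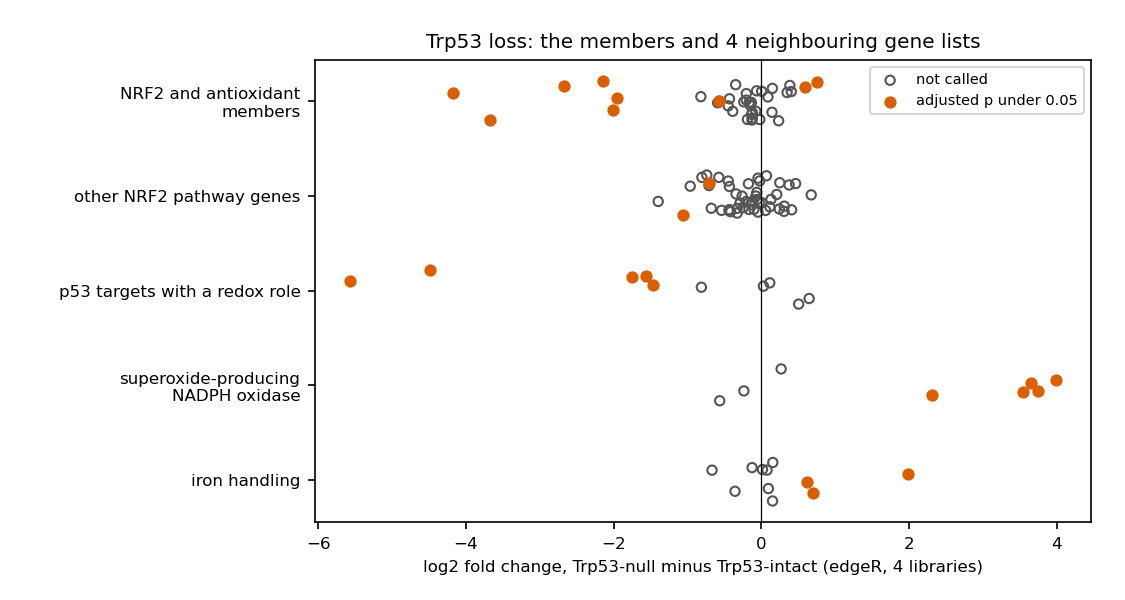
Log2 fold change with Trp53 loss from the edgeR fit for the 38 genes and the 4 neighbouring lists; each point is 1 gene, filled where the adjusted p was under 0.05. The filled points of the p53 targets lie left of 0 and those of the NADPH oxidase and iron lists right of 0.

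Some of the counts carry the uncertainty of shared sequence. Exons of 7 of the 38 genes overlap a gene on the opposite strand (Keap1, Prdx2, Prdx5, G6pdx, Gclm, Me1 and Ftl1), and no source used here gives the strand setting of the counting, so reads of the partners cannot be told apart. None of these 7 was called. On its own strand the called Ephx1 shares 72 exon bases with the pseudogene Gm36961. The pseudogenes Gpx4-ps2 and Ftl1-ps1 took 119 to 207 and 88 to 120 counts per library. Only pseudogenes named after a member were looked for, so sequence shared with pseudogenes under other names was not checked.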

How the data were processed

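RNA of 4 primary MEF cultures, 1 per genotype, was sequenced. The authors deposited whole-number counts of reads per gene, for which the submitters' processing notes list the tools featureCounts, STAR and fastp and the build mm10, with no versions. The strand setting and the annotation release were not given in what was used here. The authors also deposited FPKM values, normalized by them before deposit to gene length and library; the header names no unit, but the values equal count divided by a gene length and 1 factor per library, with lengths within 0.1% of GENCODE M21 for 95% of genes checked. FPKM served to compare levels between genes and to describe them in each library, with no test.

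Counts were tested with edgeR 4.0.16 in R 4.3.3 (quasi-likelihood, TMM scaling, additive Trp53 and Zfp871 effects, Benjamini-Hochberg threshold of 0.05) over the 13306 genes with CPM of at least 1 in at least 2 libraries. The fit was tested on simulated data. Pairs of libraries were compared by log2 ratios of TMM-scaled CPM with a prior count of 2 and exact 95% Clopper-Pearson intervals, which cover counting error only. Nothing in the labels says that cultures were replicated, so p-values measure the spread left by the additive fit. The SE printed with a fold change was worked back from that test, as the absolute log2 fold change over the square root of its F statistic. It does not measure error between replicate cultures.

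Alternatives were DESeq2 1.42.0, limma-voom (limma 3.58.1), DESeq2 size factors, total counts, no filter, a prior count of 0.5 and a 1.5-fold threshold. All 38 members are named; counts in all 4 libraries are printed for those past the test or 2-fold, for Nfe2l2 and Keap1, and for a few others of interest. From each neighbouring list up to 4 genes are named, those past the test first, then those with the largest ratio in a pair; Nnt and the chondrocyte markers were named after their values were seen; all 5 are named among the p53 targets, and 1 gene of the NADPH oxidase list is not reported here. The members, lists and markers were chosen with earlier results of these data known. Markers of epithelial, erythroid, endothelial and hepatocyte cells were also read and summed to at most 24.6 CPM in any library, with 0 genes called. Promoter windows came from RefSeq on GRCm38.p6.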

Additional observations from a re-analysis of the deposited data

Results flagged for a closer look

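The ratio without against with Zfp871 had opposite signs in the 2 Trp53 backgrounds for 21 of the 38 genes (55.3%, against 45.7% of all genes), and in 9 of them both counting intervals were clear of 0. The share of all genes with 2 such intervals was not computed. These intervals cover counting error only and narrow as counts rise, so highly counted genes meet the rule at small ratios. Each background has 1 library per genotype, so none of these differences was tested. On the log2 scale, Nqo1 was -0.37 in Zfp871-/- against WT and 0.41 in the double null against Trp53-/- (a difference of 0.78), and Hmox1 was -0.27 and 0.47 (0.74). Gstp1 was -0.53 and 0.19 (0.71), Txnrd1 was -0.30 and 0.26 (0.56), and Txn1 was -0.26 and 0.18 (0.45). Prdx1 was -0.08 and 0.12 (0.20), and Ftl1 was -0.04 and 0.06 (0.10). Gstm2 and Mgst1 went the other way, at 0.64 and -0.30 (-0.94) and at 0.52 and -0.41 (-0.93). The 7 genes with a negative first value include Txnrd1, Txn1 and Prdx1. The rest of the 9 thioredoxin and peroxiredoxin genes did not meet this rule.

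For Trp53 loss 9 of the 38 genes had opposite signs in the 2 Zfp871 backgrounds (23.7%, against 25.3% of all genes). In 3 of them both counting intervals were clear of 0, again untested and with no share of all genes computed. Hmox1 was -0.56 in Trp53-/- against WT and 0.18 in the double null against Zfp871-/- (a difference of 0.74). Gstm2 was 0.56 and -0.38 (-0.94), and Mgst1 was 0.31 and -0.63 (-0.93). The difference is the same number for both losses because both use the same 4 libraries.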

How the results depend on the processing

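The calls of Ephx1, Nqo1, Gsta4, Gpx3, Aox1, Sod3 and Fth1 for Trp53 loss held in all 5 alternatives. Of these, Sod3 came closest to the threshold, with adjusted p from 0.00186 to 0.0497, the highest with total counts. Cat was called in 3 of 5 (adjusted p from 0.0266 to 0.0767, lost with total counts and DESeq2) and Sod2 in 4 of 5 (0.029 to 0.0896, lost with DESeq2), so DESeq2 left 1 gene that rose. Nfe2l2 was called without the filter only (0.0295 to 0.0903) and Srxn1 without the filter and with DESeq2 (0.0102 to 0.095). Over all genes, the calls for Trp53 loss numbered 1241 in the edgeR fit (667 rose and 574 fell, 53.7% of calls upward) and 2304 without the filter (1113 and 1191); with total counts they were 884 and 432, or 67.2% upward. For Zfp871 loss, DESeq2 called 3 genes that rose and 5 that fell and the fit without the filter 2 and 4, with 0 of the 38 among them.

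At 1.5-fold instead of 2-fold, 2 of the 38 were higher and 2 lower in Zfp871-/- against WT (9.27% and 9.6% of all genes). In the double null against Trp53-/-, 1 was higher and 0 lower (2.8% and 3.77%). In Trp53-/- against WT, 2 were higher and 10 lower (15.9% and 16.1%). In the double null against Zfp871-/-, 2 were higher and 8 lower (12.2% and 12.7%). In the double null against WT, 2 were higher and 10 lower (16.3% and 17%). With total counts the median of the set in the double null against Zfp871-/- was 0.058, where the median of all genes was 0.142.

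Signs that turned belonged to fold changes close to 0. For Trp53 loss these were Keap1 at 0.092, Prdx2 at 0.049 and Prdx3 at 0.038 with total counts, and Sod1 at -0.00046 with DESeq2 size factors and in DESeq2 and -0.0006 without the filter. For Zfp871 loss these were, with total counts, Nqo1 at -0.018, Prdx1 at -0.0059, Sod2 at -0.016 and Ftl1 at -0.019, with limma-voom Nqo1 at -0.041, and Gsr at 0.0051 (DESeq2 size factors), 0.00092 (no filter), 0.0049 (DESeq2) and 0.0035 (limma-voom). The cause was not tested.

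No paired analysis was possible because each genotype had 1 library and the labels give no replicate numbers. Leaving out a library was not run as a test, since 3 libraries leave no residual degree of freedom in the additive fit; the pairwise ratios give each background alone. Depth limits Aox1 and Gstt1, whose counts were 152 or fewer.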

Other observations

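In the wider list of NRF2 pathway genes, some single libraries stood apart. Gsto1, an omega-class glutathione transferase, gave 4047 counts in WT and 11860 in Zfp871-/-, against 7515 in Trp53-/- and 7615 in the double null, so that Zfp871-/- was highest, with a log2 ratio of 1.55 to WT. Slc7a11, the cystine importer that feeds glutathione synthesis, gave 232, 290, 375 and 156 counts, with the double null 1.34 log2 units below Trp53-/-. Neither gene was called for Zfp871 loss. Nnt, the mitochondrial enzyme that makes NADPH from NADH, gave 15, 12, 17 and 21 counts at the first of its 2 identifiers and 0 in every library at the second; it was chosen after its values were seen.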
